A study of Mus musculus with 4 samples.

Results

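Hprt and 9 other genes of purine nucleotide metabolism were followed in single cells of 3 mouse lines. The 10 genes were chosen by symbol out of the 33565 genes in the count matrices, and all 10 were found. Hprt, Aprt, Adk, Ada and Pnp code for salvage enzymes, Gart, Paics, Ppat and Pfas for enzymes of de novo synthesis, and Impdh2 for the enzyme at the entry of the guanine nucleotide branch.

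N2a (Neuro-2a, a mouse neuroblastoma line) and NIH/3T3 (a mouse embryonic fibroblast line) were grown in DMEM with 10% FBS. The mESCs were of the E14TG2a line, grown on gelatin with 15% FBS, LIF at 1000 U/ml, 3 µM CHIR99021 and 1 µM PD0325901. Their medium also held added sodium pyruvate, β-mercaptoethanol, L-alanyl-L-glutamine and non-essential amino acids. No treatment or engineered change was named for any line, and no line was a control for another. Each line was 1 sample, marked by its own 32 sequences of the first barcode (BC1, plate columns 1 to 4, 5 to 8 and 9 to 12). The lines were then pooled, carried through the later steps together and separated again by BC1. Line and plate columns thus cannot be told apart, and in comparisons with mESCs neither can line and medium. Differences between lines therefore had no replicate check and no p-value; intervals are exact, at 95%, and cover counting error only, and the range over the 32 BC1 sequences of a line is a technical spread.

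After barcodes under 1000 UMIs or over 20% mitochondrial UMIs were removed, the cells numbered 2323 in N2a, 2037 in NIH/3T3 cells and 2137 in mESCs. They held 17955221, 11697865 and 12322098 UMIs, with medians of 6185, 4863 and 4803 UMIs per cell. No barcode was shared between the matrices of the lines, which follows from their separation by BC1 and is no check of it. The marker genes matched the line labels in part for N2a, where Hand2, Gap43 and Tubb3 were highest but Gata3 was lower (3.84 CPM, UMIs scaled to 1e6 UMIs of the line) than in mESCs (8.44 CPM). All 5 fibroblast markers were highest in NIH/3T3 and all 5 pluripotency markers in mESCs.

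Purine nucleotides are made de novo or by salvage. The de novo route builds the ring step by step on phosphoribosyl pyrophosphate (PRPP) and ends at inosine monophosphate (IMP), from which AMP and GMP are made. Salvage reuses free bases and nucleosides. Hprt joins hypoxanthine or guanine to PRPP, Aprt does the same for adenine, and Adk phosphorylates adenosine. Loss of Hprt makes cells resistant to 6-thioguanine and sensitive to HAT medium, which is why the gene is widely used for selection. E14TG2a is known as an Hprt-deficient line whose deletion takes in the promoter and first exons of the gene; the genome of the mESCs was not analysed here.

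The windows around the start sites of 4 genes are printed because their levels differed most between mESCs and another line (Hprt and Impdh2) or because the genes overlap at their starts (Ppat and Paics). The printed windows of Ppat and Paics have no base in common. Each runs from 250 bases before to 50 bases after the start, 5′ to 3′ on the strand of the gene, from RefSeq on GRCm38.p6. Capitals mark the E-box CACGTG and the GC box GGGCGG or, on the other strand, CCGCCC.
Hprt, chrX:52987828-52988127, plus strand: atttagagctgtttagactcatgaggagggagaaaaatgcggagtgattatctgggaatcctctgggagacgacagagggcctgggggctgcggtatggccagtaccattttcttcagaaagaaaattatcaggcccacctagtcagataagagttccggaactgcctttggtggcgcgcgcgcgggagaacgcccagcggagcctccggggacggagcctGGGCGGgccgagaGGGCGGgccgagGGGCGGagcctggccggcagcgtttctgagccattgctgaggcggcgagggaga
Ppat, chr5:76951529-76951828, minus strand: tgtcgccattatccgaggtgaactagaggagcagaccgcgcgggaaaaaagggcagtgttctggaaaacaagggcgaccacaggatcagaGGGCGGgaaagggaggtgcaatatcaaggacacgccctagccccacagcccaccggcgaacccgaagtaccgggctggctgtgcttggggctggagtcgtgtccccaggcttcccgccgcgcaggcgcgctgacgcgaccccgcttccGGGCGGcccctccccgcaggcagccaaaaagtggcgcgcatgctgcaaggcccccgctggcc
Paics, chr5:76951052-76951351, plus strand: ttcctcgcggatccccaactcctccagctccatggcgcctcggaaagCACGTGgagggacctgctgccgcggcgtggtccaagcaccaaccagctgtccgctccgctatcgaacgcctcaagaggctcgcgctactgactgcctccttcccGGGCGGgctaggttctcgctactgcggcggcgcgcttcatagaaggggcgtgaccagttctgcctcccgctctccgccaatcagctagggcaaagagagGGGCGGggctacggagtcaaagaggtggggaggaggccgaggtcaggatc
Impdh2, chr9:108560186-108560485, plus strand: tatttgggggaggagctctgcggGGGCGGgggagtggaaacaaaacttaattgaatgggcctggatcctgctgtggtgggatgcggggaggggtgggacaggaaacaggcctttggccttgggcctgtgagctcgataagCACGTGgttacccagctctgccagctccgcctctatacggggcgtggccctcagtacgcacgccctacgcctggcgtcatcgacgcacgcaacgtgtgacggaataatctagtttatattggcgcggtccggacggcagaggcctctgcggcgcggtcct
The Hprt window held 3 GC boxes and no E-box. Paics and Impdh2 were the members with an E-box in the window, 1 each. In the table of 32851 windows, 7.15% held an E-box and 35.7% a GC box. A window was found for 9 of the 10 members, all except Pfas, and each held at least 1 GC box, counting both windows of Adk. These matches describe letters in the windows and not bound sites.

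Hprt lies on chromosome X from 52076892 to 52111304 of GRCm39, on the plus strand. It was measured at 103.8 CPM (95% interval 99.1 to 108.6) in N2a, 107.6 CPM (101.8 to 113.7) in NIH/3T3 cells and 2.19 CPM (1.44 to 3.19) in mESCs. The mESC level was thus lower than both others by a wide margin, whereas N2a and NIH/3T3 lay within counting error of each other. The ratio of CPM was 47.4 (32.4 to 72.1) for N2a over mESCs and 49.1 (33.6 to 74.8) for NIH/3T3 over mESCs. N2a over NIH/3T3 gave 0.964 (0.897 to 1.04). By BC1 sequence, Hprt ran from 76.9 to 132.5 CPM in N2a (median 103.3) and from 70.5 to 149.0 CPM in NIH/3T3 (median 106.9). In mESCs it ran from 0 to 6.40 CPM (median 1.99), so no BC1 sequence of mESCs reached the lowest of either other line.

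Among single cells, an Hprt UMI was seen in 48.4% of N2a cells, 39.9% of NIH/3T3 cells and 1.17% of mESCs. After each cell was thinned to 1000 UMIs, with no cell left out, the shares were 9.81% (8.63 to 11.1), 10.5% (9.21 to 11.9) and 0.281% (0.103 to 0.610). The 27 Hprt UMIs of the mESCs lay in 25 cells spread over 18 BC1 sequences, with at most 2 in a cell. Those 25 cells had a median of 6775 UMIs against 4797 in the other mESCs, and each held at least 7 UMIs of the mESC markers. Among markers of the other lines, the 5 under 2 CPM in mESCs (Hand2, Col1a2, Cav1, Prrx1 and Thy1) gave 3 UMIs in 2 of the 25 cells and 61 UMIs in the remaining mESCs. The remaining mESCs make up most of the 2137 cells, so these sums are not rates. With UMIs in only 2 of the 25 cells, no comparison of rates is made. The mESC level of Hprt was 2.04% of its level in the higher line. The same share was 0.442% for Hand2, 0.194% for Col1a2, 0.243% for Cav1, 0.130% for Prrx1 and 19.0% for Thy1, which reached only 5.98 CPM in its highest line. These 5 were taken for a low mESC level, which by itself lowers their shares. Left out by that limit were Gap43 (4.63 CPM in mESCs against 176.9 in N2a) and Tubb3 (37.6 against 228.7). So were Loxl1 (3.41 in mESCs against 52.8 in NIH/3T3) and Gata3, which was higher in mESCs than in N2a. Free RNA as a source of the 27 UMIs was not tested. At this depth the mESC value is a trace, and reads cannot be assigned here to one part of the gene.

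**Figure D1:**
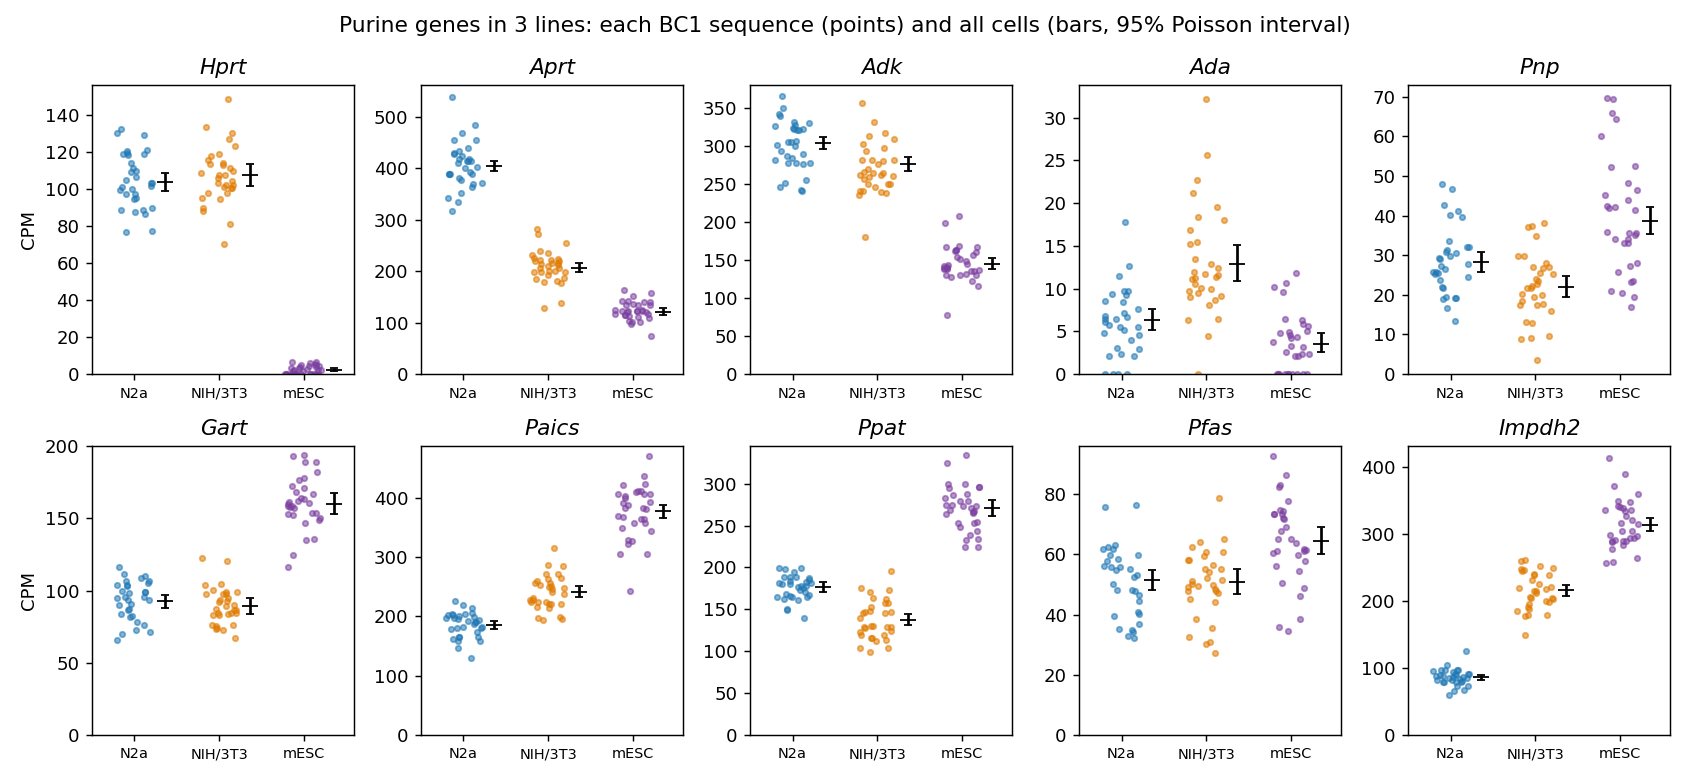
Level in CPM (vertical axes, linear from 0, scaled per gene) of the 10 purine genes in N2a, NIH/3T3 and mESCs, with 1 point per BC1 sequence (32 per line) and a black bar with its 95% Poisson interval for all cells of a line. Hprt stays at or below 6.40 CPM in every mESC point, while Gart, Paics, Ppat and Impdh2 are highest in mESCs.

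The low level of Hprt in mESCs was set beside its nearest genes on chromosome X that reached 5 CPM in a line, 3 on each side. Phf6, a chromatin-associated PHD finger gene whose annotated end is 31055 bases before Hprt, was measured at 59.5 CPM in N2a, 79.7 CPM in NIH/3T3 cells and 31.9 CPM in mESCs. On the other side, C430049B03Rik, 30686 bases away, was at 14.9, 9.06 and 3.49 CPM in that order. Both were lowest in mESCs, but neither was as low relative to the other lines as Hprt. Farther out the order turned for all but Mospd1. Gpc3, a cell-surface glypican, was at 0.278, 0.684 and 50.5 CPM, Ccdc160 at 0.0557, 0.171 and 24.9 CPM, and Fam122b at 12.8, 7.61 and 31.7 CPM. Mospd1 differed little but was also lowest in mESCs, at 7.85, 9.40 and 6.49 CPM. Of the 6 neighbours, 3 were therefore highest in mESCs and the rest lowest there. Gpc3 and Ccdc160 reached 5 CPM only in mESCs, and C430049B03Rik only in the other lines. For these genes the choice by level fixed whether mESCs could be highest, so nothing is read from the count.

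**Figure D2:**
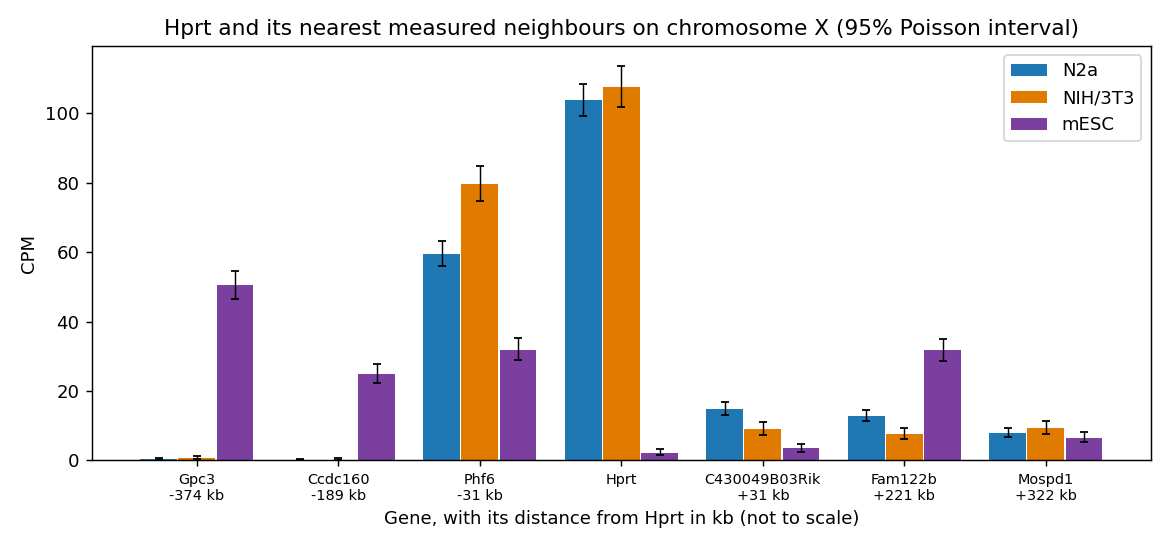
Level in CPM (vertical axis) of Hprt and the 3 nearest measured genes on each side, in chromosome order with distances in kb that are not drawn to scale; error bars are 95% Poisson intervals. Hprt is at 2.19 CPM in mESCs between Phf6 at 31.9 CPM and C430049B03Rik at 3.49 CPM.

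Over all 9522 genes with at least 20 CPM in a line, those whose pattern over the 3 lines was most like that of Hprt were found by the distance between log2(CPM + 1) values, each set relative to the gene's own maximum. Lncppara was nearest (distance 0.158), at 80.6 CPM in N2a, 92.7 CPM in NIH/3T3 cells and 1.87 CPM in mESCs. Rhox5, an X-linked homeobox gene, followed (0.226) at 426.6, 454.3 and 14.6 CPM. Ftl1, the ferritin light chain, was at 718.2, 863.9 and 21.2 CPM (0.290), though this gene has many near-identical copies and its counts are uncertain. Zhx2 (0.345) was at 69.7, 76.3 and 1.87 CPM, and 9330188P03Rik (0.359) at 36.6 and 29.1 CPM with no UMI in mESCs, which allows up to 0.243 CPM. A pattern low in 1 of 3 lines was thus shared by genes of other kinds, and likeness over 3 values is a weak description.

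The other salvage genes were present in all 3 lines, and most were also lowest in mESCs. Aprt (chromosome 8, 123301184 to 123303648, minus strand) was at 404.3 CPM (395.0 to 413.7) in N2a, 207.1 CPM (199.0 to 215.5) in NIH/3T3 cells and 121.7 CPM (115.6 to 128.1) in mESCs. The lines stood apart beyond counting error, with N2a over mESCs at 3.32 (3.14 to 3.51), N2a over NIH/3T3 at 1.95 (1.86 to 2.04) and NIH/3T3 over mESCs at 1.70 (1.59 to 1.82). The N2a values by BC1 sequence (316.3 to 539.1 CPM) did not overlap those of NIH/3T3 (129.5 to 281.5) or mESCs (73.5 to 163.2). After thinning, 33.7% of N2a cells, 19.0% of NIH/3T3 cells and 9.97% of mESCs held an Aprt UMI.

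Adk (chromosome 14, 21102618 to 21499916, plus strand) was at 303.6 CPM (295.6 to 311.8) in N2a, 275.9 CPM (266.4 to 285.5) in NIH/3T3 cells and 145.2 CPM (138.5 to 152.1) in mESCs. The N2a level was 2.09 times (1.98 to 2.21) and the NIH/3T3 level 1.90 times (1.79 to 2.01) that of mESCs. By BC1 sequence, N2a (240.6 to 365.7 CPM) stood clear of mESCs (78.0 to 207.6), whereas NIH/3T3 (180.6 to 356.4) overlapped both. The gene spans 397299 bases, and whether intronic reads entered its counts was not stated in the sources used here.

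Pnp and Ada act on nucleosides, Pnp splitting inosine and guanosine into base and sugar phosphate and Ada turning adenosine into inosine. Pnp (chromosome 14, 51168473 to 51190869, plus strand) was the salvage member that was highest in mESCs, at 38.6 CPM (35.2 to 42.3) against 28.3 (25.9 to 30.9) in N2a and 21.97 (19.4 to 24.8) in NIH/3T3. The mESC level was 1.37 times (1.20 to 1.55) that of N2a and 1.76 times (1.51 to 2.05) that of NIH/3T3, with ranges over BC1 sequences that overlapped throughout. Pnp2, a copy of the gene, had no UMI in any line, which allows up to 0.167 to 0.256 CPM (3 counts). Ada (chromosome 2, 163565705 to 163592159, minus strand) was low everywhere, at 12.8 CPM (10.9 to 15.0) in NIH/3T3, 6.29 (5.19 to 7.57) in N2a and 3.57 (2.59 to 4.79) in mESCs. NIH/3T3 over mESCs came to 3.59 (2.55 to 5.15), but the BC1 ranges of all lines started at 0 CPM and overlapped.

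The 4 de novo members were each highest in mESCs. Ppat, which catalyses the first committed step from PRPP, was at 176.8 CPM (170.7 to 183.1) in N2a, 137.3 CPM (130.7 to 144.2) in NIH/3T3 cells and 271.0 CPM (261.9 to 280.3) in mESCs. The mESC level was 1.53 times (1.46 to 1.61) that of N2a and 1.97 times (1.86 to 2.10) that of NIH/3T3. By BC1 sequence the mESC values (224.0 to 333.6 CPM) lay above all N2a values (139.4 to 199.6) and all NIH/3T3 values (99.3 to 195.7), which overlapped each other.

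Paics, the bifunctional enzyme of the carboxylase and SAICAR synthetase steps, was at 185.8 CPM (179.5 to 192.2) in N2a, 241.6 CPM (232.8 to 250.7) in NIH/3T3 cells and 377.8 CPM (367.0 to 388.8) in mESCs. It was 2.03 times (1.94 to 2.13) higher in mESCs than in N2a and 1.56 times (1.49 to 1.64) higher than in NIH/3T3. The mESC values by BC1 sequence (242.6 to 471.4 CPM) were above those of N2a (129.7 to 225.4) and overlapped those of NIH/3T3 (194.7 to 315.8). The genes Ppat (chromosome 5, 77061096 to 77099436, minus strand) and Paics (chromosome 5, 77099139 to 77116370, plus strand) lie head to head and overlap by 298 bases at their starts. Both were highest in mESCs, but they ordered the other lines differently: Ppat was 1.29 times higher in N2a than in NIH/3T3, and Paics was 1.30 times higher in NIH/3T3 than in N2a.

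Gart, a trifunctional enzyme of several early steps, lies on chromosome 16 from 91416576 to 91444536 on the minus strand. Its level was 92.6 CPM (88.2 to 97.1) in N2a, 89.3 CPM (84.0 to 94.9) in NIH/3T3 cells and 160.1 CPM (153.1 to 167.3) in mESCs. The N2a and NIH/3T3 intervals overlapped, and mESCs were 1.73 times (1.62 to 1.85) and 1.79 times (1.66 to 1.93) higher. The lowest BC1 sequence of mESCs (116.2 CPM) sat just above the highest of N2a (116.1) and below the highest of NIH/3T3 (122.9). Pfas (chromosome 11, 68875996 to 68899303, minus strand), the enzyme of a step between those of Gart, varied least among the de novo members, at 51.4 CPM (48.1 to 54.8), 50.9 CPM (46.9 to 55.1) and 64.5 CPM (60.1 to 69.2). Its mESC level was 1.26 times (1.14 to 1.38) that of N2a and 1.27 times (1.14 to 1.41) that of NIH/3T3, and the BC1 ranges overlapped.

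Impdh2 (chromosome 9, 108437485 to 108442783, plus strand), which oxidises IMP on the way to GMP, differed between all 3 lines, at 85.8 CPM (81.5 to 90.2) in N2a, 215.9 CPM (207.6 to 224.5) in NIH/3T3 cells and 313.7 CPM (303.9 to 323.8) in mESCs. The mESC level was 3.66 times (3.45 to 3.88) that of N2a and 1.45 times (1.38 to 1.53) that of NIH/3T3, and NIH/3T3 was 2.52 times (2.36 to 2.68) above N2a. All N2a values by BC1 sequence (59.8 to 125.8 CPM) were below those of NIH/3T3 (149.0 to 261.3) and mESCs (257.0 to 414.3). Its counts are uncertain, since 78.2% of the 89-base windows in the last 500 bases of its transcript also occur in the copy Impdh2-ps, for which the matrices hold no row. The other isoform gene, Impdh1, was at 20.3, 32.9 and 20.5 CPM in N2a, NIH/3T3 and mESCs, a different order.

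A gene was called different when CPM + 1 was at least 2-fold apart between a pair of lines, among genes with at least 10 CPM in either. Of 9 members tested between N2a and mESCs, 3 were called higher in N2a (Hprt, Aprt and Adk), against 21.7% of all 10606 genes tested. In the same pair 2 were called higher in mESCs (Paics and Impdh2), against 19.3% of all genes. Paics sat at the threshold. Between NIH/3T3 and mESCs, 2 of 10 members were called higher in NIH/3T3 (Hprt and Ada; background 21.6% of 10519 genes) and 0 higher in mESCs (background 20.03%), with Ppat at 1.97 times just short of the call. Between N2a and NIH/3T3, 0 of 10 members were called higher in N2a (background 18.1% of 10459 genes), and 1, Impdh2, was called higher in NIH/3T3 (background 17.9%). With so few members, nothing is read from these shares.

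Ranges over BC1 sequences did not overlap between N2a and mESCs for 7 of 9 members (Hprt, Aprt, Adk, Gart, Paics, Ppat and Impdh2), against 25.9% of all genes tested. Between NIH/3T3 and mESCs this held for 2 of 10 members (Hprt and Ppat; background 22.6%), and between N2a and NIH/3T3 for 2 of 10 (Aprt and Impdh2; background 23.3%). Separation of this kind is helped by a high level, which gives each BC1 sequence more UMIs.

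Read as lists, the salvage and de novo members differed in opposite directions between mESCs and the other lines by their medians. This does not hold for whole routes. Pnp was highest in mESCs, against its list, and Adsl and Atic, de novo enzymes outside the list, were lowest there. The median log2 difference in CPM + 1 of N2a minus mESCs was 1.39 over 4 salvage members tested, 3 of them higher in N2a, and -0.70 over the 4 de novo members, 0 of them higher in N2a. For NIH/3T3 minus mESCs the medians were 0.92 over 5 salvage members, 4 of them higher in NIH/3T3, and -0.74 over the 4 de novo members, again 0 of them higher. The median of all genes tested was 0.05 in both pairs, and both pairs share the mESC sample. For N2a minus NIH/3T3 the medians were 0.14 for salvage, 0.03 for de novo and 0.02 for all genes.

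Summed over their genes, salvage UMIs came to 846.3 CPM in N2a, 625.4 CPM in NIH/3T3 cells and 311.3 CPM in mESCs, and de novo UMIs to 506.5, 519.1 and 873.4 CPM. The ratio of salvage to de novo UMIs, used only to compare lines, was 1.67 (1.63 to 1.71) in N2a, 1.20 (1.16 to 1.25) in NIH/3T3 cells and 0.356 (0.343 to 0.370) in mESCs. By BC1 sequence it ran from 1.39 to 2.04, from 0.937 to 1.53 and from 0.278 to 0.520, so that mESCs lay apart from both other lines. Without Hprt, which gave 27 of the 3836 salvage UMIs in mESCs, the ratios were 1.47, 0.998 and 0.354. Without Adk, whose counts may hold intronic reads, they were 1.07, 0.673 and 0.190. The lines kept their order in both.

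**Figure D3:**
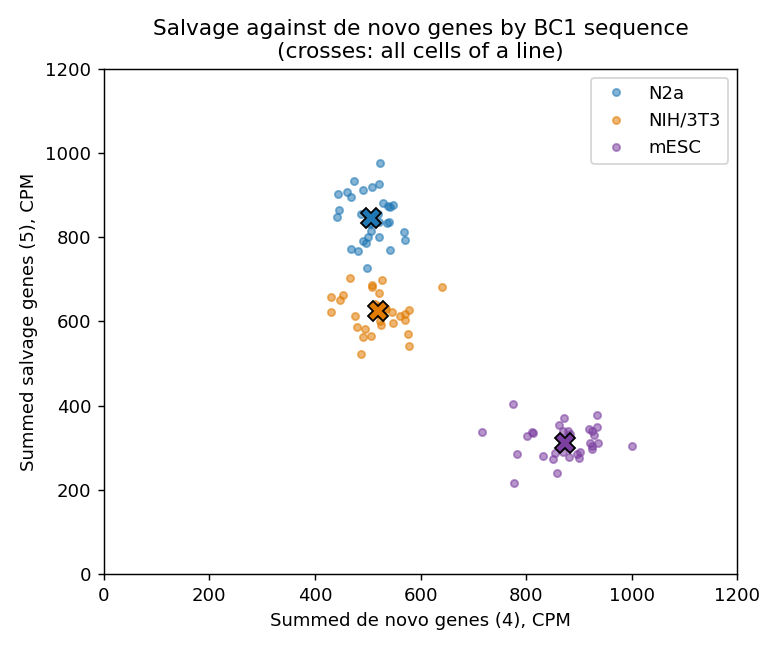
Summed CPM of the 5 salvage genes (vertical axis) against the summed CPM of the 4 de novo genes (horizontal axis), with 1 point per BC1 sequence and a cross for all cells of each line. The mESC points lie to the lower right, around 873.4 CPM de novo and 311.3 CPM salvage, apart from N2a and NIH/3T3.

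In single cells thinned to 1000 UMIs, none of the 4 de novo genes was seen in 60.2% of N2a cells, 59.7% of NIH/3T3 cells and 43.8% of mESCs. None of the 5 salvage genes was seen in 43.5%, 53.0% and 74.5%. Paics was seen in 16.8% of N2a cells, 22.9% of NIH/3T3 cells and 31.3% of mESCs, and Impdh2 in 7.58%, 20.3% and 26.5%. The higher mESC levels of these genes were thus spread over many cells. No cell of mESCs held more than 19 Paics UMIs at full depth, against 15 in N2a and 11 in NIH/3T3.

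The last steps to IMP did not follow the 4 de novo members. Adsl, which cleaves SAICAR, was at 78.1 CPM in N2a, 82.5 CPM in NIH/3T3 cells and 52.4 CPM in mESCs. Atic, the bifunctional enzyme of the final steps, was at 192.4, 221.7 and 134.5 CPM. Both were lowest in mESCs, with N2a over mESCs at 1.49 (1.36 to 1.64) for Adsl and 1.43 (1.35 to 1.52) for Atic, and NIH/3T3 over mESCs at 1.57 (1.42 to 1.74) and 1.65 (1.55 to 1.75). With these genes added, the 6 enzymes of the route came to 777.1 CPM in N2a, 823.2 CPM in NIH/3T3 cells and 1060 CPM in mESCs. The salvage ratio over all 6 was 1.09 (1.06 to 1.11), 0.760 (0.737 to 0.783) and 0.294 (0.283 to 0.304), with the lines in the same order. The higher total in mESCs therefore came from the first 4 enzymes of the route and not from all of it.

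After IMP, Gmps, which completes GMP, was at 230.0, 178.2 and 173.8 CPM in N2a, NIH/3T3 and mESCs, and so did not share the order of Impdh2. Adss, at the entry to AMP, was at 160.5, 227.5 and 199.1 CPM. Before the route, the PRPP synthetase genes differed in order: Prps1 was at 91.8, 43.1 and 95.1 CPM and Prps2 at 40.7, 46.8 and 21.1 CPM.

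**Figure D4:**
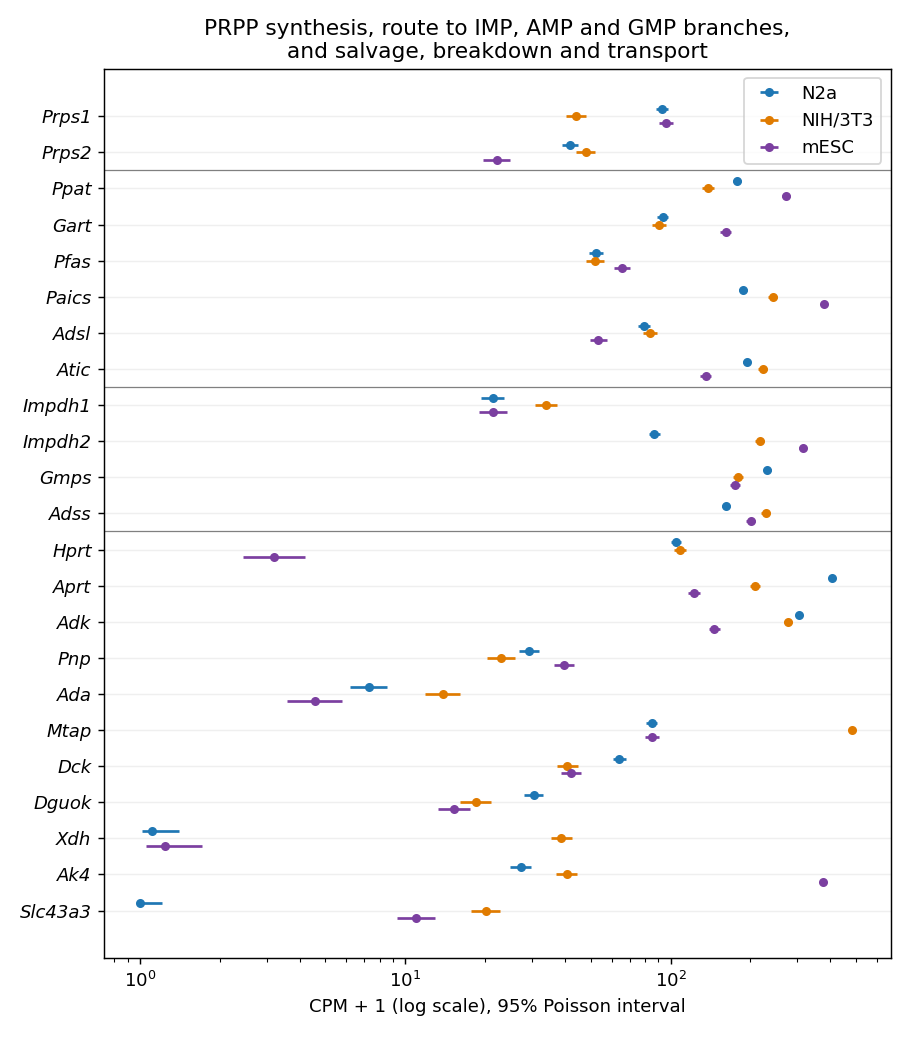
CPM + 1 (horizontal axis, log scale) with 95% Poisson intervals for 23 purine genes in pathway order from top to bottom: PRPP synthesis, the route to IMP, the AMP and GMP branches, then salvage, breakdown and transport. The mESC points are rightmost for Ppat, Gart, Pfas and Paics and leftmost for Adsl and Atic.

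In all, 43 other purine genes were listed. Of 33 tested between N2a and mESCs, 4 were called higher in N2a (Ampd2, Nt5c, Nt5c3b and Ak1) and 2 higher in mESCs (Ak4 and Rrm2), against 21.7% and 19.3% of all genes. Of 37 tested between NIH/3T3 and mESCs, 7 were called higher in NIH/3T3 (Prps2, Mtap, Xdh, Ampd2, Ampd3, Nt5c and Slc29a2) and 3 higher in mESCs (Prps1, Ak4 and Slc29a1), against 21.6% and 20.03%. Of 37 tested between N2a and NIH/3T3, 3 were called higher in N2a (Prps1, Ampd1 and Ak1) and 5 higher in NIH/3T3 (Mtap, Xdh, Rrm2, Slc29a2 and Slc43a3), against 18.1% and 17.9%. Each pair held both directions, and no count was above its background share.

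Xdh, which oxidises hypoxanthine and xanthine to uric acid, was at 37.7 CPM (34.3 to 41.4) in NIH/3T3, with 2 UMIs in N2a and 3 in mESCs; NIH/3T3 over mESCs was 154.8 (52.6 to 753.7). Hypoxanthine is also the substrate of Hprt, yet the pair had different patterns, since Xdh was near 0 in both N2a and mESCs. Ak4, a mitochondrial adenylate kinase, was at 374.6 CPM (363.9 to 385.6) in mESCs, 14.3 times (13.0 to 15.8) the N2a level of 26.2 CPM and 9.46 times (8.60 to 10.4) the NIH/3T3 level of 39.6 CPM. Slc43a3, a purine base transporter, had 0 UMIs in N2a, which allows up to 0.167 CPM (3 counts over the line), and was at 19.1 CPM in NIH/3T3 cells and 9.98 CPM in mESCs. Taken over that limit of 0.167 CPM, the NIH/3T3 level was 115-fold higher, with the counting error of NIH/3T3 not included. Mtap, which releases adenine, the substrate of Aprt, was at 480.7 CPM (468.2 to 493.4) in NIH/3T3 against 83.9 in N2a and 84.0 in mESCs, and NIH/3T3 over N2a was 5.73 (5.41 to 6.07). Mtap and Aprt thus peaked in different lines.

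Demand for nucleotides is tied to DNA replication, so the cells of each line were also ranked by the thinned UMIs of 18 S-phase genes. Cuts were set at the tertiles, but ties at whole UMIs made the groups unequal: the upper and lower groups held 1027 and 843 of 2323 cells in N2a (at least 3 and at most 1 UMIs) and 863 and 911 of 2137 in mESCs (at least 5 and at most 3). In NIH/3T3 they held 944 and 1093 of 2037 cells (at least 3 and at most 2), which is every cell, with no middle group. Ratios are CPM in the upper over the lower group of a line. Paics was higher in the upper group in all 3 lines, at 1.40 (1.30 to 1.52) in N2a, 1.14 (1.06 to 1.22) in NIH/3T3 cells and 1.13 (1.06 to 1.21) in mESCs. Ppat gave 1.22 (1.13 to 1.32), 1.14 (1.03 to 1.26) and 1.16 (1.07 to 1.25). These were 2 of the 8 members at 10 CPM or more in every line, and an interval above 1 in all 3 lines was found for 1.30% of 7127 genes at that level. Within N2a, 6 of 9 members had an interval above 1 (Aprt, Adk, Gart, Paics, Ppat and Impdh2), against 12.9% of genes. The NIH/3T3 count was 2 of 10 (background 7.49%), and in mESCs 3 of 8 (Aprt, Paics and Ppat, background 7.04%). The 18 S-phase genes, whose own UMIs set the groups, were not left out of these background shares. An interval also clears 1 more readily for a gene with many UMIs, and the background genes were not matched to the members by level. Pnp in mESCs, with 214 and 185 UMIs, was not counted at 1.18 (0.965 to 1.44), a larger ratio than that of Paics there. Cuts at the quartiles were tied as well, and the lower group of N2a stayed the same 843 cells. With these cuts Aprt was lost in N2a and mESCs. Aprt and Gart were gained in NIH/3T3, which made 4 of 10 there, and Impdh2 was gained in mESCs. Paics and Ppat stayed above 1 in all 3 lines. The interval of Hprt included 1, at 0.931 (0.840 to 1.03) in N2a and 1.06 (0.947 to 1.18) in NIH/3T3, as did that of Pfas at 0.977 (0.845 to 1.13), 1.10 (0.935 to 1.30) and 0.996 (0.852 to 1.16).

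**Figure D5:**
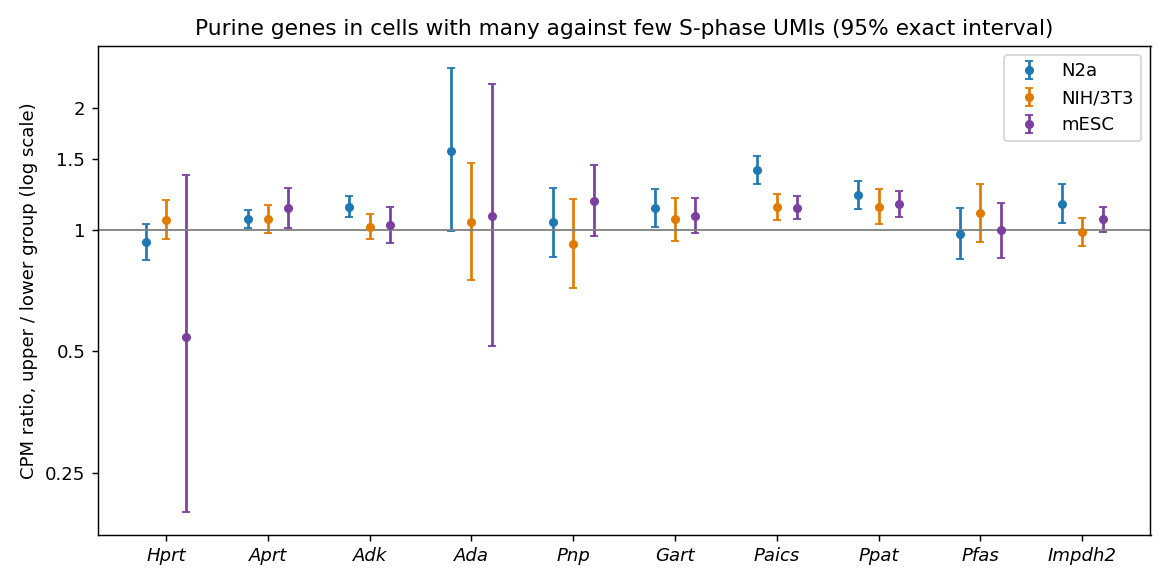
Ratio of CPM in the upper over the lower group of cells by S-phase UMIs (vertical axis, log scale) for each of the 10 genes in each line, with exact 95% intervals; 1 means no difference. Paics and Ppat lie above 1 in all 3 lines, and the wide intervals of Hprt in mESCs and of Ada come from few UMIs.

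The groups are ranges of a score and not cell types, and the cells of a line are 1 sample. Their median depths were 6017 and 6313 UMIs (upper and lower) in N2a, 5031 and 4717 in NIH/3T3, and 4860 and 4718 in mESCs. The cuts lay at higher S-phase UMIs in mESCs, where the 4 de novo members were also higher; the part of the S-phase UMIs in that difference was not tested. In the lower group of mESCs, of up to 3 S-phase UMIs, Paics was at 352.2 CPM, and in the upper groups of N2a and NIH/3T3, of 3 or more, it was at 216.4 and 257.9 CPM. Ppat was at 250.5 CPM against 193.7 and 146.7 CPM in the same groups, and Gart at 152.4 CPM against 100.0 and 92.1 CPM. Pfas was closer, at 65.3 CPM against 51.9 and 53.5 CPM. Scores of different lines may not be comparable. Their list holds Rrm2, which was at 67.4 CPM in N2a, 183.5 CPM in NIH/3T3 cells and 282.4 CPM in mESCs.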

How the data were processed

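Single-cell RNA-seq was measured by split-pool barcoding in 3 mouse lines that were pooled after the first barcode. The authors deposited UMI counts per gene and barcode, which they made with bcl2fastq, Cutadapt 5.0 and STAR 2.7.11b on GRCm39 with GENCODE M30; the treatment of intronic, antisense and multi-gene reads was not given in the sources used here. Of the matrices, 1 holds the pool and 3 the lines, separated by the first barcode; the pooled matrix served only as an alternative. UMIs were summed per line over barcodes of 1000 UMIs or more, of which no more than 20% were mitochondrial, and divided by their total (CPM). No doublet caller was run. Intervals were exact Poisson, exact binomial or, for ratios, exact conditional binomial (scipy 1.17.1 with numpy 2.4.6, under Python 3.11.15); UMI totals of 11697865 to 17955221 per line put 3 counts at 0.167 to 0.256 CPM. With 1 sample per line no test across lines was made. Thinning drew 1000 UMIs per cell (seed 7). Positions come from GENCODE M39, in which 32953 of 33565 identifiers were found, with Hprt named Hprt1. Named genes were all members, Mtap, the 3 other purine genes of largest fold, the 5 genes most like Hprt and its 3 neighbours per side; Adsl, Atic, Impdh1, Gmps, Adss, Prps1, Prps2 and Pnp2 were added for their place in the pathway. The members and lists were chosen with earlier results of these data known. Of the fixed line markers, 1 is not reported here. The scripts were tested on simulated data.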

Additional observations from a re-analysis of the deposited data

Results flagged for a closer look

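In mESC barcodes outside the cell filter, which enter no comparison above, Hprt was at 3.86 CPM (1.42 to 8.41; 6 UMIs of 1553258). This drew attention because it is a signal in data not otherwise used, above what a count of 0 allows. The interval overlaps that of the mESCs that passed the filter (1.44 to 3.19 CPM), and the same kind of barcodes held 83.1 CPM in N2a and 89.6 CPM in NIH/3T3.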

How the results depend on the processing

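Under the alternatives for cells, filters, weighting, denominator, scaling and BC1 sequences, no member's difference between lines changed sign where it was past 2-fold. This is a weak check, since a difference of that size is far from 0. The differences of Gart, Hprt and Pfas between N2a and NIH/3T3, all within 0.10 of 0 on the log2 scale, changed sign in some. Calls near 2-fold moved. Paics alone accounts for the mESC over N2a count falling from 2 to 1 without the 5% of cells with the most UMIs, with the mean over cells of each cell's CPM and at the lowest on leaving out each BC1 sequence in turn. The count higher in mESCs than in NIH/3T3 went from 0 to 1 with median of ratios scaling and at the highest on leaving out each BC1 sequence. The count higher in NIH/3T3 than in N2a went from 1 to 2 with CPM + 0.1 and at the highest on leaving out each BC1 sequence. At 1.5-fold the counts were 1 for N2a over NIH/3T3, 2 for NIH/3T3 over N2a, 4 for mESCs over N2a, 4 for NIH/3T3 over mESCs and 4 for mESCs over NIH/3T3. The salvage to de novo ratio stayed within its interval in the 33 settings that kept its genes, counted over all lines. Among these, the changed denominator and median of ratios scaling cancel in a ratio within a line and could not move it. In alternatives chosen after seeing the data it was 1.09, 0.760 and 0.294 (N2a, NIH/3T3, mESCs) with Adsl and Atic among the de novo genes, 1.07, 0.673 and 0.190 without Adk, and 1.47 and 0.998 without Hprt in N2a and NIH/3T3. Of 330 member levels, 30 moved, most with the denominator that leaves out mitochondrial and ribosomal protein genes; 2 of 30 S-phase ratios moved with quartiles, and 5 changed side of an interval above 1. Shares of cells with a UMI followed the thinning depth. No paired analysis was possible because each line is 1 sample and no test was made. Depth limits Ada in all lines and Hprt in mESCs.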
